A study of Mus musculus with 4 samples.

Results

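The genes described here encode the precursors, processing enzymes and receptors of the kinin and angiotensin systems in mouse inguinal white adipose tissue (ingWAT). They are *Kng1*, *Kng2*, *Klkb1*, *Bdkrb1*, *Bdkrb2*, *Ace*, *Agt*, *Agtr1a* and *Agtr2*, and they were taken as the rows of the expression table whose symbol equals one of these names. Of the 9 genes, 8 had a row among the 19030 genes of the table, and *Agtr2* had none. *Kng2* was chosen by its rise in these same libraries, so its difference between the genotypes is given as a description with no test. The other 8 genes were selected for their function in the same peptide systems, with earlier results of these data already known. The question was whether the receptors and processing enzymes moved with the kininogen transcript.

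Bulk RNA-seq was run on ingWAT of C57BL/6 mice, aged 3 months and held at 4 °C. Ctrl mice carried the floxed allele alone (Oct3 fl/fl), and cKO mice carried Oct3 fl/fl together with Adiponectin-Cre, so that both genotypes shared the floxed allele, the age and the cold. *Oct3*, also named *Slc22a3*, encodes organic cation transporter 3, which takes up norepinephrine. There were 2 libraries of each genotype, and all 4 came from cold-exposed mice. Adiponectin-Cre acts in adipocytes, so the other cells of the depot keep the gene, and the number of mice behind a library was not given in the sources used here. Since the labels do not say whether replicates are separate animals, p-values measure only the spread between these libraries, which may be technical. Values are FPKM, the reads of a gene scaled to transcript length and to the mapped reads of the library, so that levels of different genes can be compared per length.

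Kinins are short peptides cut out of kininogens by kallikreins. They widen vessels, make them leaky and cause pain through the B2 receptor, which is usually present, and the B1 receptor, which is induced by injury and inflammation. Angiotensinogen is cut by renin to angiotensin I, which angiotensin-converting enzyme (ACE) shortens to angiotensin II, a peptide that constricts vessels through the type 1 receptor. The systems meet in ACE, because the same enzyme also degrades bradykinin. White adipose tissue is a known source of angiotensinogen outside the liver, whereas the liver makes most plasma kininogen and prekallikrein.

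The promoters of *Kng2*, *Agt* and *Ace* are shown because these genes gave the largest differences between the genotypes among the genes described here. The sequences are from RefSeq on GRCm38.p6 and run from 250 bases before to 50 bases after the annotated start, 5′ to 3′ on the strand of the gene, and 6 of the 9 genes had an entry. The *Kng2* window is chr16:23029052-23029351 on the minus strand, the *Agt* window is chr8:124569657-124569956 on the minus strand, and the window of the first of the *Ace* starts in the table is chr11:105967698-105967997 on the plus strand. Capitals mark AGGTCA, a half-site of nuclear receptors, in *Kng2*, and TATAAA, the TATA box, in *Agt* and, read on the opposite strand, in *Ace*.
Kng2: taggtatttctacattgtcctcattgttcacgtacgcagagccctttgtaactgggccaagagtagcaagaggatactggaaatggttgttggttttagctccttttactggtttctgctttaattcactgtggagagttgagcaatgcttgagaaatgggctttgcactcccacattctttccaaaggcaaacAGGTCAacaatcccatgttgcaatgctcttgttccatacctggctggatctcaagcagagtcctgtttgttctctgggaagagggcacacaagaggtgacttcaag
Agt: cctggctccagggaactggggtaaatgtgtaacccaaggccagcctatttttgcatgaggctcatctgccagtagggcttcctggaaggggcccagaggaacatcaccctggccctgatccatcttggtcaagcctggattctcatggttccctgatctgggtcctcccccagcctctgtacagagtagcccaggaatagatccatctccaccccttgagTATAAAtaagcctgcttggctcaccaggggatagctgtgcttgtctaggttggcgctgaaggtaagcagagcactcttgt
Ace: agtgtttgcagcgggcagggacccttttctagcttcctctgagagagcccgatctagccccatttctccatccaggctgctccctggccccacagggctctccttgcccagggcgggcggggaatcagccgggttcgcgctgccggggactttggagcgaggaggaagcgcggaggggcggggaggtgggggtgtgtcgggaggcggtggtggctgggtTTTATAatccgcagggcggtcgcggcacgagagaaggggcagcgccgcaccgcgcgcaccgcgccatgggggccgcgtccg
The motifs were searched on both strands with overlaps allowed. AGGTCA was found in 16.3% of the 32851 promoters in the table and began 56 bases before the *Kng2* start. TATAAA was found in 13.6% of promoters, and it began 30 bases before the *Agt* start and 31 bases before the first *Ace* start. The window of the second *Ace* start, chr11:105974939-105975238 on the plus strand, is not printed. It held the nuclear receptor half-site, beginning 50 bases before the start, and no TATA box. TGACG, the half-site of cAMP-responsive element binding protein, was in 20.8% of promoters and in none of these windows. A match describes letters in the window and is not evidence of binding.

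*Slc22a3* fell in the cKO libraries, from FPKM of 16.95 and 17.68 to 9.07 and 9.5, with a log2 fold change of -0.83 (limma, adjusted p = 0.000439). Depth estimated from short RNA genes was 17650000 to 18650000 reads per library. The libraries also differed in the levels of cell type markers. The counts of calls below stand beside 12% called higher and 13.8% called lower among all tested genes. Markers of skeletal muscle, the genes *Ckm*, *Acta1*, *Myh4*, *Tnnt3* and *Pvalb*, summed to 997 to 1517 FPKM in Ctrl and to 2.84 to 4.63 in cKO, with 5 of 5 called lower. Brown and beige adipocyte markers (*Ucp1*, *Cidea*, *Dio2*, *Elovl3*, *Cox8b* and *Ppargc1a*) summed to 1345 to 1570 in Ctrl and 3527 to 4193 in cKO, with 6 of 6 called higher. Fibroblast and progenitor markers, among them *Pi16*, *Dcn* and *Cd34*, had 5 of 6 called lower, and their sum was 1228 to 1436 against 753 to 775. White adipocyte markers had 2 of 5 called lower, *Adipoq* and *Lep*. The sum of the 5 was 19040 to 19420 against 15990 to 16190, and most of it was *Fabp4*, which was not called. *Plin1* and *Cidec* were not called either, at log2 fold changes of -0.07 and 0.07. Endothelial markers had 3 of 6 called lower, mast cell markers 2 of 5, and smooth muscle and pericyte markers 3 of 9 lower and 1 higher. Macrophage markers had 2 of 4 lower and 1 higher, whereas 4 of 4 B cell markers and 3 of 3 tested neutrophil markers were called higher. *Ly6g*, the other listed neutrophil marker, was at most at 0.06 FPKM in any library and was not tested. Whether these shifts contributed to the differences below was not tested, and in bulk tissue fewer cells of a type and less RNA per cell cannot be told apart.

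*Kng2* was the gene of the group that was higher in cKO. It encodes a kininogen, the protein from which bradykinin is released, and lies on chromosome 16 from base 22985852 to 23029101 (GRCm38.p6). Its FPKM was 2.93 and 4.49 in the Ctrl libraries and 16.27 and 13.78 in the cKO libraries. Both cKO values stood above both Ctrl values, and the means were 3.71 ± 1.10 in Ctrl and 15.0 ± 1.76 in cKO (SD, n = 2), a ratio of 4.05. The log2 fold change on log2(FPKM + 1) was 1.78 with a standard error of 0.158, which placed *Kng2* at rank 13 from the top among 12658 tested genes. Its neighbours in that order were *Snord53* and *Dio2* just above, at 1.85 and 1.80, and *Mir7115* and *Pdk4* just below, at 1.69 and 1.65. *Dio2*, which makes active thyroid hormone, and *Pdk4*, which restrains glucose oxidation, are protein-coding neighbours. *Snord53* was listed at 0 in both Ctrl libraries and passed the minimum mean FPKM of 1 only through cKO. *Mir7115* was at 0 and 4.01 in Ctrl and 6.26 and 6.19 in cKO and was not called.

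The kininogen paralog *Kng1*, on the same chromosome, was almost absent. Its FPKM was 0.07 and 0 in Ctrl and 0.11 and 0.03 in cKO, the equivalent of about 3, 0, 4 and 1 reads, so that the groups overlapped. The reads of the copies can be confused. Of the 50-base windows of each *Kng2* transcript, 18.2% to 23.2% also occur in any of the 3 *Kng1* transcripts. Summed over both rows, the kininogen log2 fold change was 1.78. It ranged from 1.55 to 2.01 over the 9 alternatives fitted for the sum, which left out those that change the minimum level. Nearly all of the sum is *Kng2*, so it rests on the same choice of a gene that rose. The effect of the division of shared reads on the *Kng2* row was not tested. Of the hepatocyte markers, *Ttr* was at 0.09 and 0 in Ctrl and at 0 in both cKO libraries, *Ambp* was at most 0.05, and *Alb* fell from 24.42 and 24.41 to 11.47 and 14.89. Hepatocyte marker genes had 2 of 4 tested called lower, *Alb* and *Cyp2e1*, beside 13.8% of all tested genes, and *Fgb* had no row. The other 2 tested did not pass the test: *Apoa2* was at 0.81 and 1.26 in Ctrl and 1.95 and 1.53 in cKO, a log2 fold change of 0.43, and *Serpina1c* was at 2.2 and 1.42 against 1.3 and 1.61. The sum of the list was 983 to 1025 in Ctrl and 703 to 826 in cKO. Nearly all of it was *Cyp2e1*, at 997.73 and 955.5 in Ctrl, so the sum followed that gene and not the list. The part of hepatocyte transcripts in the *Kng2* difference was not tested.

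*Agt*, the other precursor, was lower in cKO. Angiotensinogen, its product, is the sole source of the angiotensin peptides, and the gene lies on chromosome 8 from base 124556587 to 124569706. FPKM was 11.91 and 10.7 in Ctrl and 4.22 and 4.43 in cKO. Both Ctrl values stood above both cKO values, with means of 11.3 ± 0.856 and 4.33 ± 0.149 (SD, n = 2), which is 2.61-fold lower. The log2 fold change was -1.21 (SE 0.0815, limma with Benjamini-Hochberg adjustment, adjusted p = 0.000275), at rank 107 from the bottom of all tested genes. The call held under each of the 11 alternative settings, with log2 fold changes from -1.36 to -1.14. The fibroblast and progenitor marker sum fell alongside it, and its part in the result was not tested.

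The precursors changed places between the genotypes. The ratio of *Agt* to *Kng2* FPKM was 4.07 and 2.38 in the Ctrl libraries and 0.259 and 0.322 in the cKO libraries. *Agt* was thus the more abundant precursor per length in both Ctrl libraries, and *Kng2* in both cKO libraries. Because *Kng2* was chosen for its rise, the shift in this ratio is partly fixed by that choice.

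**Figure D1:**
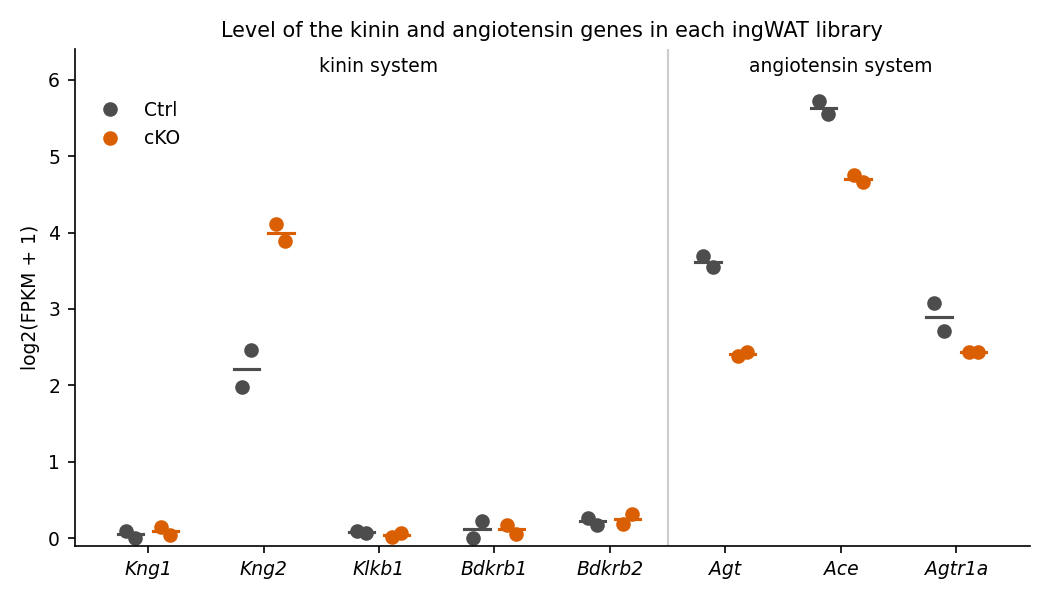
Level as log2(FPKM + 1) of each of the 8 genes with a row, with 1 point per library, Ctrl in grey and cKO in orange, and a bar at the mean of each genotype. *Kng2* sits higher in both cKO libraries, *Ace* and *Agt* sit lower in both, and *Kng1*, *Klkb1*, *Bdkrb1* and *Bdkrb2* lie near 0 in all 4.

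The processing enzymes were unequal in level. *Ace*, on chromosome 11 from base 105967948 to 105989964, encodes the enzyme that forms angiotensin II and degrades bradykinin. FPKM of *Ace* was 51.67 and 45.8 in Ctrl and 26.02 and 24.21 in cKO, so that the groups did not overlap. The means were 48.7 ± 4.15 and 25.1 ± 1.28 (SD, n = 2), 1.94-fold lower in cKO, and the log2 fold change was -0.93 (SE 0.0755, limma with Benjamini-Hochberg adjustment, adjusted p = 0.000476). The call held in each of the 11 alternatives, between -1.01 and -0.84. Of the 6 endothelial markers, *Tek* fell by 0.60 on the log2 scale and *Pecam1* did not pass the test, at -0.06. The summed FPKM of the 6 was 245 to 248 in Ctrl and 209 to 223 in cKO. *Klkb1*, which encodes plasma prekallikrein, the enzyme that frees bradykinin from high-molecular-weight kininogen, had FPKM of 0.07 and 0.05 in Ctrl and 0.01 and 0.05 in cKO, about 7, 5, 1 and 5 reads, and was not detectable as different at this depth. Without the minimum level its adjusted p was 0.494 (limma).

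The kinin receptors gave too few reads for a comparison. *Bdkrb1*, the inducible receptor, was at 0 and 0.17 in Ctrl and at 0.13 and 0.04 in cKO, about 0, 4, 3 and 1 reads. *Bdkrb2*, the constitutive receptor, was at 0.2 and 0.13 in Ctrl and 0.14 and 0.24 in cKO, about 14, 9, 9 and 16 reads. The groups overlapped for both, and without the minimum level their adjusted p-values were 0.998 for *Bdkrb1* and 0.781 for *Bdkrb2* (limma). A difference in these receptors was therefore not detectable at this depth.

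*Agtr1a*, the type 1 receptor of angiotensin II, was lower in cKO by a smaller margin. The gene lies on chromosome 13 from base 30336356 to 30382867. FPKM was 7.43 and 5.52 in Ctrl and 4.41 and 4.39 in cKO. Both Ctrl values stood above the cKO values, with means of 6.48 ± 1.35 and 4.40 ± 0.0141 (SD, n = 2) and a log2 fold change of -0.46 (SE 0.125, limma with Benjamini-Hochberg adjustment, adjusted p = 0.0352). The call was lost in 6 of the 11 alternatives, including without Ctrl replicate 1, where the log2 fold change was -0.27 and the adjusted p was 0.208 (limma), and without cKO replicate 1 or 2, where it was 0.125 and 0.124.

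Of the 8 genes with a row, 4 passed the minimum mean FPKM of 1. *Kng2*, chosen for its rise, is left out of the count of calls, and *Ace*, *Agt* and *Agtr1a*, the other 3, were called lower. Over all 12658 tested genes, 25.8% were called, with 1519 genes, or 12%, higher and 1750, or 13.8%, lower. A gene at a low level in both genotypes could not enter this count. In Ctrl the levels ran in the order *Ace*, *Agt*, *Agtr1a* and *Kng2*, and neighbouring genes did not overlap between libraries. In cKO the order was *Ace*, *Kng2* and then *Agtr1a* and *Agt*, whose values overlapped.

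**Figure D2:**
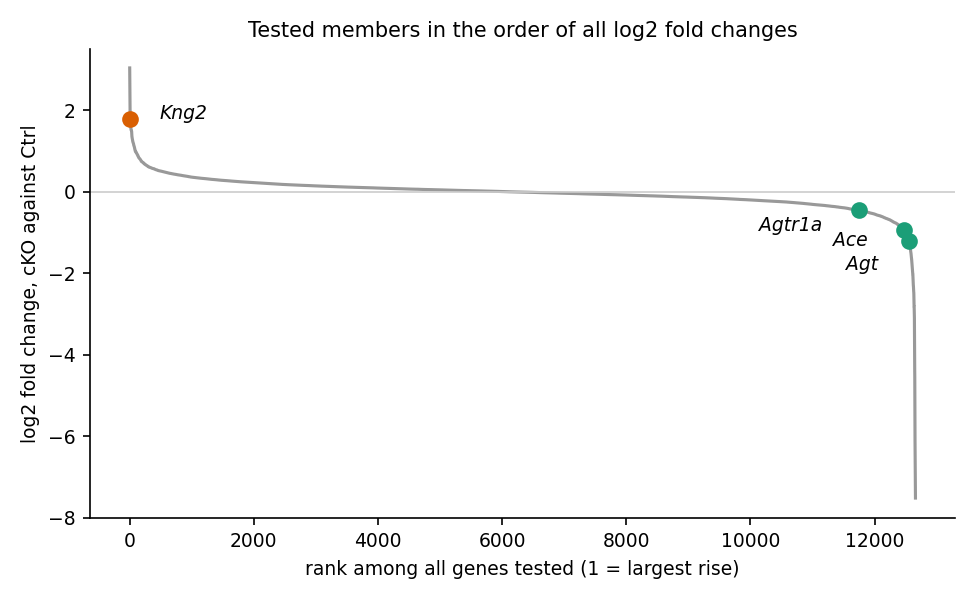
Log2 fold change of cKO against Ctrl for every tested gene, ranked from the largest rise (rank 1) to the largest fall, with the 4 tested genes marked by coloured points. *Kng2* lies at rank 13 from the top, and *Agt*, *Ace* and *Agtr1a* lie at ranks 107, 192 and 913 from the bottom.

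Other genes of these systems were read from a list of 38 chosen by known function, with earlier results of these data already known. Of the 38, 35 had a row and 28 were tested. Of these, 2 were called higher, 9 lower and 17 were not called, with a median log2 fold change of -0.10 beside -0.006 over all tested genes, of which 25.8% were called, 12% higher and 13.8% lower. Leaving out 1 library left 4 lower calls without Ctrl replicate 1, 5 without Ctrl replicate 2 and 5 without cKO replicate 2, and 1 higher call in each case. Of the 11 calls, 5 held in every alternative that could be fitted, those of *Enpep*, *Serping1*, *Serpina3c*, *Cpn2* and *Dpp4*. *Xpnpep2*, among the 9 lower calls, passed the minimum level only through Ctrl.

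In the kinin system, 8 of the 12 listed genes were tested, and 2 were called higher and 5 lower, beside 12% and 13.8% of all tested genes. The median log2 fold change was -0.49. *Xpnpep2*, among the 5 lower calls, passed the minimum level only through Ctrl. *Cpn2* encodes the noncatalytic subunit of carboxypeptidase N, which trims the C-terminal arginine of kinins. Its FPKM was 0.72 and 1.37 in Ctrl and 3.63 and 3.53 in cKO, and its log2 fold change was 1.18 (SE 0.159, limma, adjusted p = 0.0025). *Cpn1*, the catalytic subunit, was at most 0.03 in any library. *Cpm*, encoding a membrane carboxypeptidase, had FPKM of 1.48 and 1.71 against 2.39 and 2.26, and its call (limma, adjusted p = 0.0490) was lost in 7 of 10 alternatives. Among the inhibitors, *Serping1*, encoding C1 inhibitor, which restrains plasma kallikrein, went from 240.8 and 202.87 to 134.11 and 134.55, and its log2 fold change was -0.71 (SE 0.0852, limma, adjusted p = 0.00161). *Serpina3c*, of the serpin family and uncertain in its reads because it belongs to a multigene cluster, went from 59.7 and 54.02 to 27.58 and 33.42 with a log2 fold change of -0.88 (limma, adjusted p = 0.0013).

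Among the peptidases in the kinin list, *Dpp4*, *Xpnpep2* and *Cpd* were called lower, while *Cpm* was called higher and *Xpnpep1* was not called. Peptidases counted in the renin-angiotensin list were mixed as well. *Enpep* and *Anpep* were called lower there. *Mme*, *Thop1*, *Nln*, *Prcp* and *Prep* were not called, at log2 fold changes of -0.07, -0.12, -0.03, -0.05 and -0.02. *Dpp4*, which removes dipeptides from the amino end of peptides and is used as a marker of adipose progenitors, went from 14.52 and 12.3 to 7.54 and 7.65, with a log2 fold change of -0.74 (limma, adjusted p = 0.0016). *Xpnpep2*, an aminopeptidase that inactivates bradykinin, went from 1.83 and 1.91 to 1.09 and 0.84, a log2 fold change of -0.55, and its call was lost in 4 of 10 alternatives. Its cKO mean of 0.965 FPKM lay under the minimum level, so that it was tested only because of its level in Ctrl. *Cpd*, another carboxypeptidase, went from 13.69 and 13.97 to 9.29 and 10.79, a log2 fold change of -0.43, and its call was lost in 3 of 11. *Xpnpep1*, a cytosolic aminopeptidase, did not pass the test, with a log2 fold change of 0.09. *Klk1*, encoding tissue kallikrein, lay between 0.37 and 0.58 in the 4 libraries and *F12* at most at 0.15, below the minimum level.

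Of the 20 other renin-angiotensin genes in the list, 14 were tested. Of these, 2 were called lower and 12 were not called, a share near the 13.8% of all tested genes called lower. *Ace*, *Agt* and *Agtr1a* stood outside this list, and each was called lower. The median log2 fold change of the 14 was -0.06. *Enpep*, aminopeptidase A, which shortens angiotensin II, went from 21.03 and 18.72 to 12.48 and 12.99, with a log2 fold change of -0.60 (SE 0.0747, limma, adjusted p = 0.00187). *Anpep*, aminopeptidase N, had values of 13.64 and 11.67 against 10.22 and 9.04, a log2 fold change of -0.36, and its call was lost in 8 of 11 alternatives. The 12 had log2 fold changes from -0.30 to 0.13 and a lowest adjusted p of 0.0680 (limma). *Agtrap*, which limits surface expression of the type 1 receptor, was at 9.29 and 8.81 against 7.65 and 7.72. *Atp6ap2*, the prorenin receptor, was at 24.06 and 23.05 against 22.46 and 24.7, so that the groups overlapped. The mast cell chymases *Cma1* and *Mcpt4*, which can form angiotensin II without ACE, had log2 fold changes of -0.30 and -0.18 and did not pass the test. *Mme*, encoding neprilysin, had a log2 fold change of -0.07 and did not pass it either. Over the alternative settings the log2 fold change of *Cma1* ranged from -0.50 to -0.10, depending on which Ctrl library was left out. *Mas1*, a receptor of an angiotensin fragment, lay between 0.06 and 0.07 FPKM in the 4 libraries, and *Ren1* had no row.

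The signal relay of the receptors was measured through 6 genes, of which 2 were called lower and 4 were not called, beside 13.8% of all tested genes called lower. The median log2 fold change was -0.14. *Plcb1*, a phospholipase C, went from 5.33 and 4.71 to 3.61 and 3.1, a log2 fold change of -0.47, and its call was lost in 4 of 10 alternatives. *Gnaq*, the G protein subunit that couples these receptors to it, went from 14.58 and 14.91 to 12.19 and 12.7, a log2 fold change of -0.23, and its call was lost in 6 of 11. *Plcb2*, another phospholipase C, was at 2.82 and 3.13 in Ctrl and 3.69 and 4.09 in cKO, so that the groups did not overlap, with a log2 fold change of 0.30 (limma, adjusted p = 0.0611). It passed the test in 3 of 10 alternatives, where the adjusted p was 0.0411, 0.0270 and 0.0479 (limma).

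**Figure D3:**
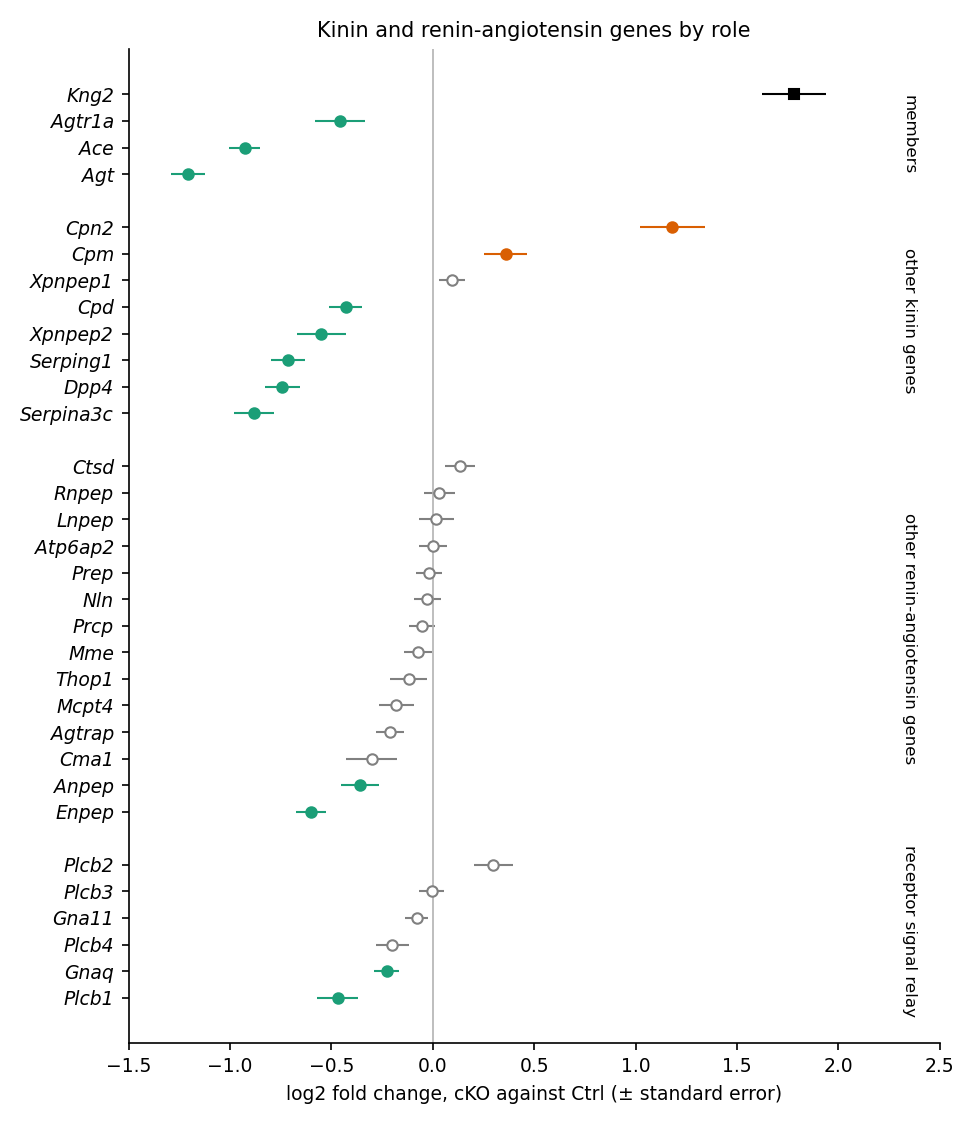
Log2 fold change of cKO against Ctrl with its standard error, for tested genes by group. Orange marks genes called higher, green called lower and open grey points genes not called, and *Kng2* is a black square because it was chosen for its rise. In the group of other renin-angiotensin genes, which leaves out *Ace*, *Agt* and *Agtr1a*, the points lie mostly close to 0. In the group of other kinin genes 5 of 8 are green, beside 13.8% of all tested genes called lower. *Xpnpep2*, among these 5, passed the minimum level only through Ctrl.

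The genes whose pattern over the 4 libraries was nearest to that of *Kng2* were *Dio2*, *Pdk4*, *Ccl7*, *Elovl3* and *Ucp1*. Likeness was measured as the Euclidean distance between values of log2(FPKM + 1) after subtraction of the Ctrl mean, and it was 0.0812 for *Dio2* and 0.292 for *Ucp1*. *Dio2* had FPKM of 1.98 and 3.17 in Ctrl and 11.73 and 10.77 in cKO, and *Ccl7*, a chemokine, had 3.15 and 4.28 against 15 and 12.25. *Dio2*, *Elovl3* and *Ucp1* are 3 of the 6 brown and beige adipocyte markers, which were all higher. The likeness rests on 4 libraries in 2 groups, so that any gene with a like rise comes near.

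The genes nearest to *Agt* were *Sult1e1*, *Aspn*, *Smoc2*, *Apod* and *Stac3*, at distances from 0.046 to 0.109. *Sult1e1*, the estrogen sulfotransferase, had FPKM of 18.28 and 16.04 in Ctrl and 6.52 and 6.91 in cKO, and *Aspn*, a proteoglycan of the extracellular matrix, had 17.98 and 16.98 against 6.98 and 7.3. *Smoc2*, a matrix protein, went from 27.07 and 22.92 to 10.05 and 10.58, and *Apod*, apolipoprotein D, from 28.68 and 27.7 to 11.79 and 12.19. *Stac3* was at 2.31 and 1.79 in Ctrl and 0.36 and 0.32 in cKO. Its ratio of means was 6.03, against 2.61 for *Agt*, and at such low FPKM the added 1 brings its log2 values near those of *Agt*. It passed the minimum level only through Ctrl. The skeletal muscle marker sum was also far lower in cKO, and its part in the *Stac3* difference was not tested.

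**Figure D4:**
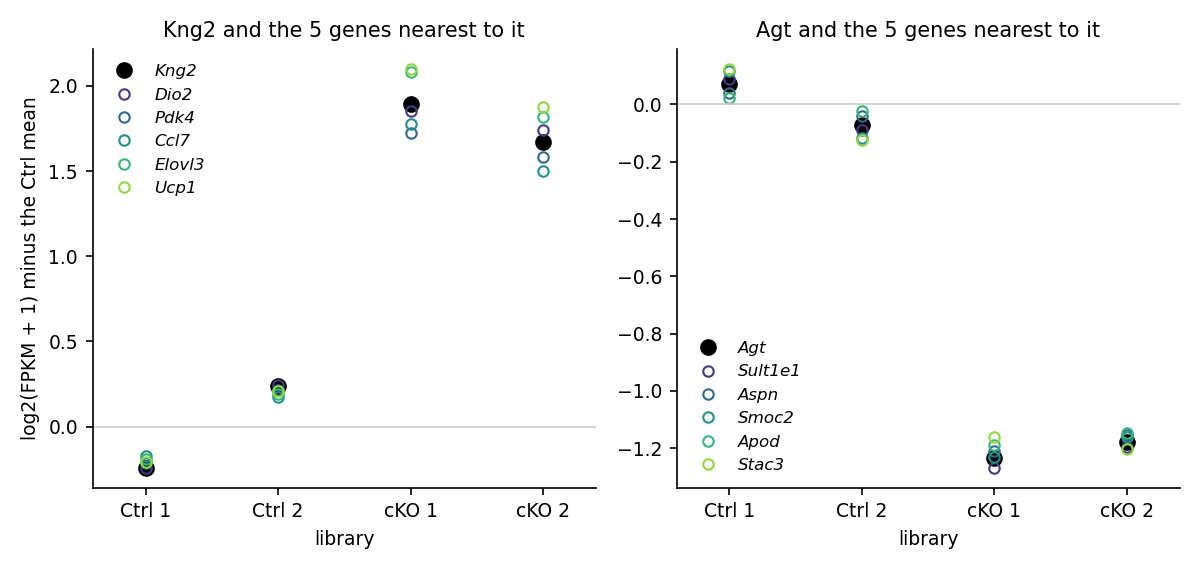
Log2(FPKM + 1) minus the Ctrl mean in each of the 4 libraries, for *Kng2* with its 5 nearest genes and for *Agt* with its 5 nearest genes. Filled black points are *Kng2* and *Agt*, and open points their nearest genes; all rise in cKO in the first panel and all fall in the second.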

How the data were processed

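RNA-seq was analysed for 4 ingWAT libraries, 2 Ctrl and 2 cKO. Per the labels and the study's methods, poly-A RNA was sequenced as 50-base single reads on a BGISEQ-500, and the submitters' processing notes name HISAT2 2.0.4 and RSEM 1.2.12. The FPKM values were deposited by the authors as 1 table of all libraries, with no other measurement. How reads shared by gene copies were divided is not given in the sources used here. Whole reads could not be recovered for most genes, so no count test was run, and read numbers given are estimates from FPKM, the depth and the transcript length.

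The test covered the 12658 of 19030 genes whose FPKM averaged 1 or more, and used limma 3.58.1 in R 4.3.3 on log2(FPKM + 1), with a variance trend and Benjamini-Hochberg adjustment over all tested genes. A gene was called at an adjusted p under 0.05, two-sided. The fold change on this scale understates the change of low genes. The script was tested on simulated data. Members and lists were chosen with earlier results of these data known. Genes named in the text are the 9 members, the called pathway genes with the largest changes or a role a sentence needs, and the 5 genes nearest to *Kng2* and to *Agt*. Replicate numbers are not stated to pair the libraries, so the main fit held no block. The correlation of replicate deviations between the genotypes was 0.0148, which with 2 libraries of each genotype cannot show whether they were paired. The values of 1 listed pathway gene are not reported here.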

Additional observations from a re-analysis of the deposited data

How the results depend on the processing

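The results were recomputed under 11 alternatives: a pseudocount of 0.1, no minimum level, a minimum level of 5 FPKM, quantile normalization, scaling by the median of ratios, a replicate block, no variance trend, and leaving out each library in turn, where the lone library of a genotype was assumed to vary like the others. *Ace* and *Agt* kept their calls in each. *Kng2* stayed higher, but it was chosen for its rise in these same libraries, so this is no independent support. *Agtr1a* (log2 fold change -0.46) lost its call with no minimum level (-0.46), quantile normalization (-0.42) and no variance trend (-0.46), and it ranged from -0.64 to -0.27 with 1 library left out. The 2 higher calls of the pathway list became 1 with a pseudocount of 0.1, no minimum level or the replicate block, 0 with the minimum of 5 (limma), where *Cpn2* and *Cpm* were not tested, 1 to 1 with 1 library left out, and 3 with median-of-ratios scaling, quantile normalization or no variance trend, where *Plcb2* was called as well. The 9 lower calls became 4 with no minimum level and 4 to 7 with 1 library left out. *Atp6ap2* (0.0003) turned to -0.0013 under quantile normalization and ranged from -0.0655 to 0.0661 with 1 library left out, and *Mme* from -0.1497 to 0.0048. Over all genes, 3269 calls became 1762 with no minimum level, 787 without Ctrl replicate 1, 1478 without Ctrl replicate 2, 2152 without cKO replicate 1 and 3383 with the replicate block, which changed no other call among the members. Except where stated, the cause was not tested. With 2 libraries of each genotype and fewer than 20 reads, the kinin receptors cannot be compared.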
